A study of Mus musculus with 6 samples.

Results

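Complement and coagulation proteins are plasma proteins, most of them secreted by hepatocytes, and 49 of their genes were followed in mouse livers after knockdown of the bHLH transcription factor gene Atoh8 (bHLH, basic helix-loop-helix). The 49 genes were a list of symbols, 24 of complement and 25 of coagulation, looked up by gene symbol among 47729 genes, and all 49 were found. All 49 also passed the filter on low counts, so none was lost before testing. The knockdown libraries (n = 3) carry the genotype ATOH8 knockdown in the labels and the name shAtoh8 in the series design. The control libraries (n = 3) carry the genotype WT in the labels and the name shNC in the series design. All mice were C57BL/6 and were fed 0.1% DDC for 17 days, a compound that blocks heme synthesis and damages the bile ducts, so both groups had the injury and no liver without it was compared. The sources used here do not give the delivery of the hairpin or the age and sex of the mice. Whether the replicates were separate animals is left unsaid in the labels, so the p-values reflect the spread among these libraries alone, and that spread may be technical.

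Complement is a cascade of plasma proteases that tags cells and particles with fragments of C3 and ends in a pore, the membrane attack complex. It starts from C1q bound to antibody or cell debris (classical pathway), from lectins bound to sugars (lectin pathway) or from slow hydrolysis of C3 (alternative pathway). Coagulation is another protease cascade that ends with thrombin cutting fibrinogen to fibrin, and it is held in check by serpins, by protein C and protein S, and by plasmin, which dissolves the clot. Hepatocytes make nearly all of these proteins, whereas C1q comes mainly from macrophages and properdin (Cfp) from leukocytes.

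Each library held between 31912058 and 37969644 reads in genes, and the 49 genes held between 28 reads (Klkb1 in control replicate 1) and 911062 reads (C3 in the same library) each. Atoh8 stood at 10.2, 9.83 and 5.64 CPM in knockdown replicates 1 to 3, against 63.8, 16.8 and 16.4 CPM in control replicates 1 to 3, lower in every knockdown library than in any control (log2 fold change -1.92, SE 0.58, edgeR adjusted p = 0.197). It did not pass in edgeR with all libraries and fell without control replicate 1 (log2 fold change -0.95, SE 0.23, edgeR adjusted p = 0.0115). With all libraries it fell by DESeq2 (adjusted p = 0.0181) and by voom with quality weights (adjusted p = 0.0123). It also fell with the GC and length offset described further on (edgeR adjusted p = 0.0350), and did not pass in the other fits with all libraries. By its label the cell type was hepatocyte, but RNA was taken from whole frozen livers. Alb, the albumin gene, stood at 82508 to 92538 CPM in knockdown and 77150 to 102962 CPM in controls, and markers of macrophages, endothelium, stellate cells and bile duct cells were present as well. The 10 bile duct markers summed to 382.8 to 608.5 CPM in knockdown and 71.4 to 77.0 CPM in controls, with 7 of 7 tested positive and Spp1 and Prom1 past the test, but Krt19, a defining marker, had 3, 3 and 3 reads in knockdown and 5, 0 and 1 reads in controls. The 12 stellate cell and fibroblast markers, 9 of them positive, summed to 409.7 to 540.1 CPM in knockdown and 289.4 to 344.6 CPM in controls. The part of these cells in the members' values was not tested. In bulk RNA, more or fewer cells of a type and more or less RNA per cell cannot be told apart. Control replicate 1 stood apart from the other 5 libraries on the first principal component, which held 48.2% of the variance. Its log2 CPM correlated with those of control replicates 2 and 3 at 0.916 and 0.907 (Pearson, over genes), and those of control replicates 2 and 3 correlated at 0.984. The Y-linked gene Ddx3y was at 28.0, 34.9 and 38.4 CPM in the knockdown libraries and at 9.67, 92.6 and 110.1 CPM in the controls, while Xist was at most 0.0970 CPM in any library. Results below are therefore given with all 6 libraries and, for many genes whose call or size depends on control replicate 1, also without that library.

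Among the 49 genes the order of levels, in FPKM (fragments scaled by transcript length and library size, as the authors deposited them), ran from Serpinc1, which encodes antithrombin, through C3, Clu, Fga and Kng1 at the top to Pros1, C1qc, F11 and Cfp at the bottom. Serpinc1 had 3769.7, 4374 and 3519 FPKM in the knockdown livers and 6469.7, 4144 and 4308 FPKM in the controls. C3, the protein on which all complement pathways meet, had 3039, 3171 and 2543 FPKM in the knockdown livers and 5831, 3155 and 3238 FPKM in the controls. The first place of Serpinc1 holds on this scale only: it shares 34.4% of its exonic bases with Zbtb37 on the other strand, and its counted reads per length and depth came to 572 against a deposited FPKM of 4431. At the other end Cfp had 13.3, 12.7 and 13.4 FPKM in the knockdown livers and 12.6, 8.76 and 7.20 FPKM in the controls, below all 48 other members in its mean. Together the 49 genes took 6.63%, 6.68% and 6.05% of gene reads in knockdown replicates 1 to 3 and 7.41%, 5.06% and 4.90% in control replicates 1 to 3.

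**Figure D1:**
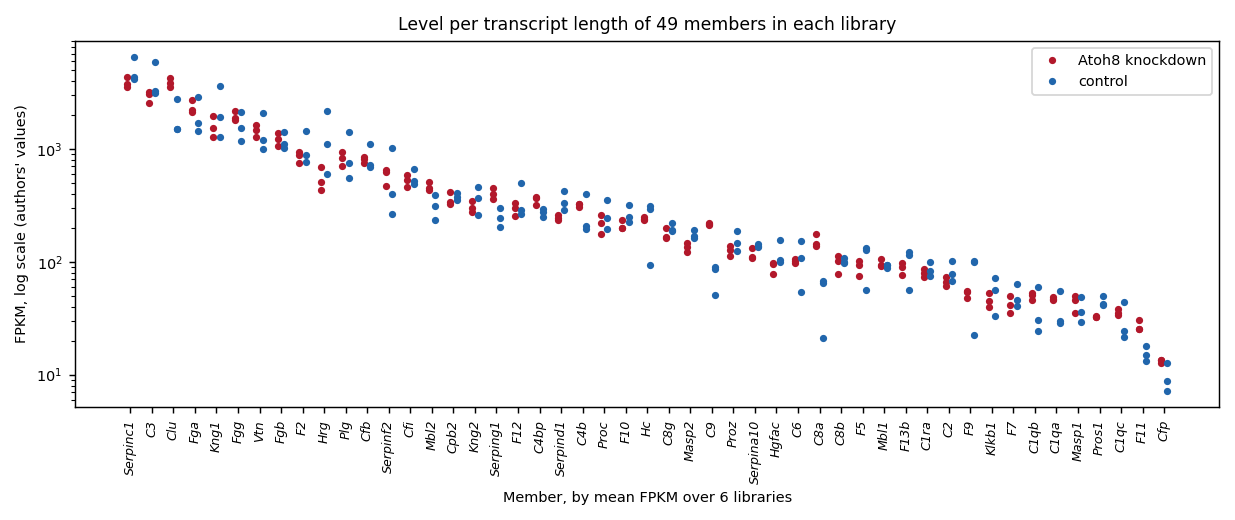
Level of each member in each library, as FPKM on a log axis, ordered by the mean over 6 libraries; red points are the 3 knockdown libraries and blue points the 3 controls. Levels run from Serpinc1 and C3 down to F11 and Cfp, and the blue point that lies away from its group is control replicate 1 in genes such as C8a, Hc and F9.

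With all 6 libraries 1 of the 49 genes, C9, rose in the knockdown livers and 0 fell (edgeR quasi-likelihood test with Benjamini-Hochberg adjustment over all genes, adjusted p under 0.05). Of all 13767 genes tested, 0.741% rose and 0.123% fell. At an unadjusted p under 0.05 there were 9 members (18.4%), against 2002 of all genes tested (14.5%). The groups did not overlap for 8 members that were higher in knockdown (C4bp, C8a, C9, Cfp, Clu, F11, Mbl2 and Serping1) and for 4 that were lower (Hgfac, Masp2, Pros1 and Serpind1), 12 of 49 in all. The groups did not overlap for 23.1% of all genes tested, 1792 higher and 1382 lower in knockdown, so the members' count lay near the background. By arm, 7 of 24 complement genes were higher and 1 lower, and 1 of 25 coagulation genes was higher and 3 lower. Over all 13767 genes tested 1792 were higher and 1382 lower, and the split by arm was not tested. Without control replicate 1, 15 members rose and 4 fell, against 16.5% and 16.1% of all 14222 genes tested in that fit. Among the members the share that rose was above that of all genes, and the share that fell was below it, differences that were not tested. With the GC and length offset described further on, also without control replicate 1, 11 members rose and 3 fell: C4b, Cfp, Fga, Serpinf2, F5 and Pros1 lost the call and Hgfac gained one.

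With all 6 libraries the terminal pathway held the single call and the largest fold changes, those of C8a and C9, whereas without control replicate 1 the largest was that of the regulator Clu (1.38, against 1.35 for C9 and 1.27 for C8a, all on the log2 scale). The proteins of this pathway are C5 (encoded by Hc), C6, the C8 alpha, beta and gamma chains (C8a, C8b and C8g) and C9, which polymerises into the ring of the membrane attack complex. C9 (ENSMUSG00000022149, GRCm38 chromosome 15, 6445327 to 6498751, plus strand) stood at 383, 394 and 427 CPM in knockdown replicates 1 to 3, against 91.8, 150.2 and 167 CPM in control replicates 1 to 3. All 3 knockdown libraries lay above every control, and the spread within each group was small beside the gap. The mean was 401 ± 22.8 CPM in knockdown and 136 ± 39.5 CPM in controls (SD, n = 3 each), a 2.94-fold rise (log2 fold change 1.56, SE 0.26, edgeR adjusted p = 0.0469). C9 also rose without control replicate 1 (log2 fold change 1.35, SE 0.15, edgeR adjusted p = 0.000321). The call with all libraries is close to its threshold: median-ratio size factors gave an edgeR adjusted p of 0.0548 with a log2 fold change of 1.54. Leaving out any library other than control replicate 1 ended the call, with adjusted p up to 0.269 and log2 fold changes of 1.54 to 1.73.

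C8a (GRCm38 chromosome 4, 104815679 to 104876398, minus strand) stood at 573, 473 and 485 CPM in knockdown replicates 1 to 3, against 62.1, 219 and 209 CPM in control replicates 1 to 3. The knockdown libraries were again all above the controls, and control replicate 1 was the lowest of the 6. The fold change was 3.12, larger than that of C9, but it did not pass (log2 fold change 1.64, SE 0.45, edgeR adjusted p = 0.161). C8a rose without control replicate 1 (log2 fold change 1.27, SE 0.16, edgeR adjusted p = 0.000474).

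C8b lies next to C8a on the same chromosome (104766317 to 104804548, plus strand) and encodes another chain of the C8 protein. It stood at 219, 243 and 173 CPM in knockdown replicates 1 to 3, against 209, 228 and 219 CPM in control replicates 1 to 3, and the groups overlapped (log2 fold change -0.05, SE 0.19, edgeR adjusted p = 0.937). C8g, the third chain, encoded on chromosome 2, stood at 126, 149 and 124 CPM in the knockdown livers and 176, 139 and 144 CPM in the controls and overlapped too (log2 fold change -0.20, SE 0.18, edgeR adjusted p = 0.678). On the FPKM scale the ratio of C8a to C8b was 1.73, 1.29 and 1.79 in the knockdown livers and 0.216, 0.630 and 0.650 in the controls. The ratio of C9 to Hc was 0.882, 0.938 and 0.863 in the knockdown livers and 0.548, 0.276 and 0.308 in the controls. Neither ratio overlapped between groups, and both had p = 0.1 by an exact two-sided permutation test, the smallest p that 3 against 3 libraries allow (0.229 after Benjamini-Hochberg adjustment over the 16 ratios computed). The ratio of C8b to C8g, in contrast, was 0.553 ± 0.0793 in knockdown and 0.511 ± 0.0609 in controls (SD, n = 3 each, exact permutation p = 0.5).

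Hc and C6 did not pass. Hc stood at 1087, 1019 and 1107 CPM in knockdown replicates 1 to 3, against 401, 1266 and 1317 CPM in control replicates 1 to 3 (log2 fold change 0.11, SE 0.42, edgeR adjusted p = 0.936). C6, which joins C5b to start the pore, stood at 270.5, 252 and 287 CPM in knockdown replicates 1 to 3, against 130.2, 290.4 and 406 CPM in control replicates 1 to 3 (log2 fold change -0.03, SE 0.38, edgeR adjusted p = 0.981). In both genes control replicate 1 lay far below all other libraries, and the knockdown libraries lay below control replicates 2 and 3. Without control replicate 1 their log2 fold changes were -0.26 and -0.35 and did not pass (edgeR adjusted p = 0.222 and 0.140).

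**Figure D2:**
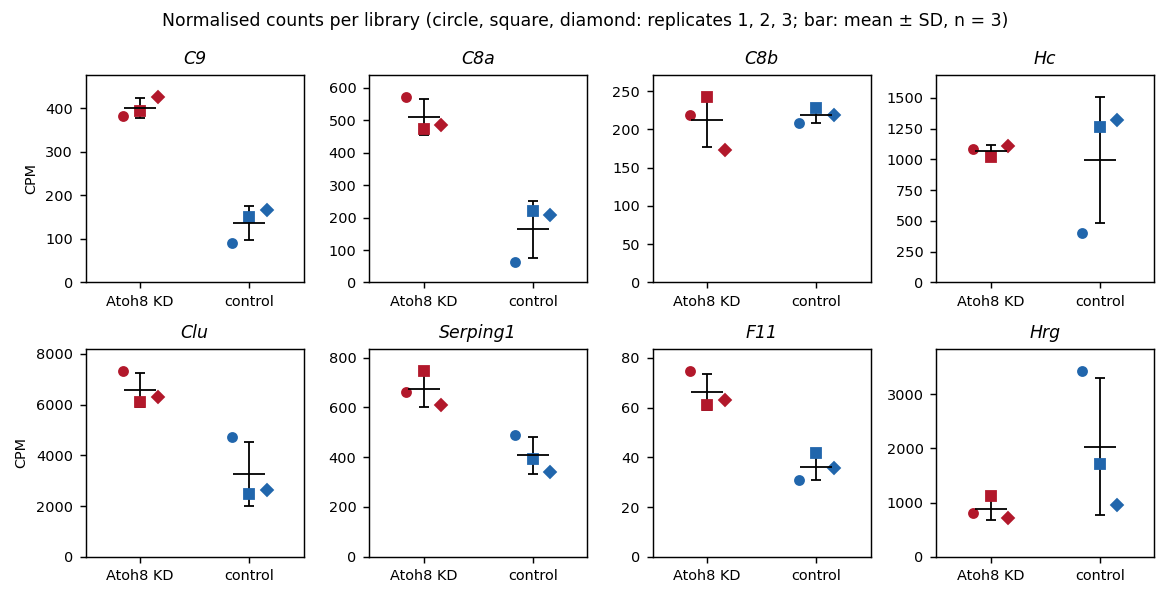
CPM of 8 members in each library, with the mean and SD (n = 3) as bars; red is knockdown, blue is control, and the marker shape gives the replicate number. C9, C8a, Clu, Serping1 and F11 have every knockdown library above every control, C8b and Hc overlap, and control replicate 1 (blue circle) is the lowest point for C8a and Hc and the highest for Hrg.

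The promoters of C9, C8a and C8b are shown because the groups did not overlap for C9 and C8a and overlapped for C8b, the neighbour of C8a. They come from RefSeq (GRCm38.p6), 300 bases each from 250 before to 50 after the start, written 5′ to 3′ on the gene's own strand. Capitals mark TTGCNNAA, letters of a C/EBP site, and GTTAAT, part of an HNF1 site, on either strand.
C9 promoter, chr15:6445096-6445395, plus strand: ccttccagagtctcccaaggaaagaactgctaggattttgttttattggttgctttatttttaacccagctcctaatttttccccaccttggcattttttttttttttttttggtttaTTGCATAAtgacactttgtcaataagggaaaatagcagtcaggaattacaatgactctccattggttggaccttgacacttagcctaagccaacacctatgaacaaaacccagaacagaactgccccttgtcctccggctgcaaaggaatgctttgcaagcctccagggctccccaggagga
C8a promoter, chr4:104876349-104876648, minus strand: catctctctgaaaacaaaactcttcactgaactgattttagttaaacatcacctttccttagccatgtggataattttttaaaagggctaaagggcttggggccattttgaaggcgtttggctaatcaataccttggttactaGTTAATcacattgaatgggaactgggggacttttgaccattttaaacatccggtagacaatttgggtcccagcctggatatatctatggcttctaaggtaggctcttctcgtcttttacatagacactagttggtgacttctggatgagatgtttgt
C8b promoter, chr4:104766067-104766366, plus strand: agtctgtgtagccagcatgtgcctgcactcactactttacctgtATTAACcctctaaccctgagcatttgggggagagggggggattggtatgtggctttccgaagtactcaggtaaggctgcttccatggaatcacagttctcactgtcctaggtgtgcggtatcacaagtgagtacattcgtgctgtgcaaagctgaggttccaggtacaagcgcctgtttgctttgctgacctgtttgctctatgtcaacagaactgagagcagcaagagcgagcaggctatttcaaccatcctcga
C/EBP and HNF1 factors drive many secreted liver proteins. C9 held 1 TTGCNNAA and no GTTAAT, whereas C8a and C8b held 1 GTTAAT each and no TTGCNNAA. The E-box letters CANNTG, which basic helix-loop-helix factors can bind, were found 0 times in C9, 1 time in C8a and 3 times in C8b. RefSeq promoters were at hand for 37 of the 49 members, 38 promoters in all. TTGCNNAA was in 31.6% of them and in 10.8% of all 32851 promoters of the table, and GTTAAT in 34.2% and 7.10%. TTCNNNGAA, letters of a STAT site, was in 23.7% and 8.30%, and CANNTG in 73.7% and 72.3%. Both strands were searched, and matches are letters in a window, not binding.

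Of the 5 complement regulators 4 had positive fold changes, with 0 past the edgeR test with all libraries (3 at an unadjusted p under 0.05, and 1, Clu, by DESeq2) and 3 of 5 (C4bp, Clu and Serping1) higher without control replicate 1. Over all genes tested, 16.5% rose without control replicate 1, and 3.73% rose by DESeq2 with all libraries. Clu, which encodes clusterin, a chaperone that keeps the terminal complex out of membranes, stood at 7323, 6112 and 6301 CPM in knockdown replicates 1 to 3, against 4734, 2477 and 2634 CPM in control replicates 1 to 3. All knockdown libraries lay above the controls, control replicate 1 being the nearest (log2 fold change 1.00, SE 0.31, edgeR adjusted p = 0.200). Without that library Clu rose (log2 fold change 1.38, SE 0.18, edgeR adjusted p = 0.000667). Serping1, which encodes the C1 inhibitor, a serpin that blocks C1r, C1s, the MASPs, kallikrein and factor XIIa, stood at 662, 745 and 608 CPM in knockdown replicates 1 to 3, against 489, 393 and 341 CPM in control replicates 1 to 3. Its groups did not overlap, and it did not pass with all libraries (log2 fold change 0.72, SE 0.21, edgeR adjusted p = 0.184). It rose without control replicate 1 (log2 fold change 0.89, SE 0.16, edgeR adjusted p = 0.00283). C4bp, which encodes C4b-binding protein, had log2 fold changes of 0.46 (edgeR adjusted p = 0.319) with all libraries and 0.50 (edgeR adjusted p = 0.0432) without control replicate 1. With the GC and length offset added these were 0.005 (SE 0.47, edgeR adjusted p = 0.996) and 0.88 (SE 0.15, edgeR adjusted p = 0.00259). Cfi, the protease that degrades C3b and C4b, and Vtn, which encodes vitronectin, had log2 fold changes of 0.02 and -0.01 with all libraries (edgeR adjusted p = 0.979 and 0.994). That of Vtn was 0.38 without control replicate 1, which did not pass in edgeR (adjusted p = 0.124) and passed in DESeq2.

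C3 had the highest FPKM of the complement genes and stood at 15699, 16540.1 and 12878 CPM in knockdown replicates 1 to 3, against 30172, 16126 and 17141 CPM in control replicates 1 to 3. Control replicate 1 alone was high, and the other 5 libraries overlapped (log2 fold change -0.49, SE 0.32, edgeR adjusted p = 0.549). Without it the log2 fold change was -0.13 (edgeR adjusted p = 0.638). Cfp, which encodes properdin, the stabiliser of the alternative pathway convertase, stood at 20.9, 20.4 and 20.7 CPM in the knockdown livers and 19.8, 14.7 and 12.2 CPM in the controls. The 3 knockdown values lay close together and just above control replicate 1, the highest control (log2 fold change 0.41, SE 0.23, edgeR adjusted p = 0.480). Without that library it rose (log2 fold change 0.63, SE 0.15, edgeR adjusted p = 0.00939). Neutrophils are a known source of properdin, and of 10 neutrophil markers 1 was abundant enough to test. Their summed level was 2.01 to 2.45 CPM in the knockdown livers and 0.650 to 2.62 CPM in the controls, and Ly6g was at 0 in all libraries. The part of leukocyte number in the Cfp values was not tested.

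Of the 7 genes of the classical and lectin pathways 0 passed in edgeR with all libraries (2 at an unadjusted p under 0.05, 0 by DESeq2), and 2 rose (C4b and Mbl2) and 1 fell (Masp2) without control replicate 1. In that last fit 16.5% of all genes rose and 16.1% fell. Mbl2, which encodes a mannose-binding lectin, stood at 472, 419 and 407 CPM in knockdown replicates 1 to 3, against 358, 289 and 227 CPM in control replicates 1 to 3. The groups did not overlap (log2 fold change 0.57, SE 0.22, edgeR adjusted p = 0.295). The other lectin gene, Mbl1, stood at 71.0, 71.4 and 84.0 CPM in the knockdown livers and 72.5, 69.2 and 79.8 CPM in the controls, with overlapping groups (log2 fold change 0.03, edgeR adjusted p = 0.953). Masp2, whose protease cuts C4 and C2 once a lectin is bound, stood at 119, 122 and 101 CPM in knockdown replicates 1 to 3, against 174, 160.1 and 148 CPM in control replicates 1 to 3. It was lower in each knockdown library than in any control (log2 fold change -0.49, SE 0.17, edgeR adjusted p = 0.255). It fell without control replicate 1 (log2 fold change -0.42, SE 0.13, edgeR adjusted p = 0.0375). C4b, encoding complement C4, had 1763, 1787 and 1591 CPM in knockdown and 2234, 1092 and 1065 CPM in the controls, with control replicate 1 above all others. Its log2 fold change was 0.23 with all libraries (edgeR adjusted p = 0.793) and 0.68 without control replicate 1 (edgeR adjusted p = 0.00875). That call ended when the GC and length offset was added (log2 fold change 0.26, edgeR adjusted p = 0.195). C1ra, C2, Masp1 and Mbl1 did not pass in either fit, and the log2 fold change of Masp1 was 0.20 with all libraries and 0.43 without control replicate 1.

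The C1q genes, C1qa, C1qb and C1qc, lie side by side on GRCm38 chromosome 4 between 136880129 and 136898803 and encode the A, B and C chains of the recognition molecule of the classical pathway. C1qa stood at 40.2, 42.5 and 38.3 CPM in knockdown replicates 1 to 3, against 47.3, 25.2 and 25.3 CPM in control replicates 1 to 3 (log2 fold change 0.31, SE 0.28, edgeR adjusted p = 0.679). C1qb and C1qc showed the same order of libraries in outline, with C1qb at 47.4, 43.8 and 46.8 CPM in the knockdown livers and 56.7, 27.9 and 24.1 CPM in the controls. In all 3 genes control replicate 1 was the highest library, the knockdown libraries came next, and control replicates 2 and 3 were lowest, so the groups overlapped and none passed (edgeR adjusted p = 0.679, 0.696 and 0.810). All 3 rose without control replicate 1, by log2 fold changes of 0.69, 0.84 and 0.59 (edgeR adjusted p = 0.00256, 0.00137 and 0.00751). The FPKM ratio of C1qa to C1qc was 1.32 ± 0.12 in knockdown and 1.26 ± 0.0491 in controls (SD, n = 3 each, exact permutation p = 0.6), and that of C1qb to C1qc was 1.40 ± 0.0783 in knockdown and 1.25 ± 0.119 in controls (exact permutation p = 0.2).

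The summed macrophage markers, like C1q, were higher in the knockdown libraries and control replicate 1 than in control replicates 2 and 3. None of the 20 passed in edgeR with all libraries (6 at an unadjusted p under 0.05). By DESeq2 Mpeg1 rose and Cd163 fell, against 3.73% and 1.40% of all genes. Without control replicate 1, 14 rose and 2, Cd163 and Mrc1, fell, against 16.5% and 16.1% of all 14222 genes tested in that fit. Cd163, a scavenger receptor of tissue macrophages, stood at 7.05, 12.4 and 10.9 CPM in knockdown and 15.6, 34.1 and 36.9 CPM in controls, without overlap. Of the 20 18 had positive fold changes, and the median was 0.55 on the log2 scale, against 0.31 for the C1q genes and -0.05 for all genes tested. The summed level was 994.9, 883 and 1087 CPM in knockdown replicates 1 to 3 and 895, 579.6 and 528 CPM in control replicates 1 to 3. None of the 20 was at 0 in any library. Summed C1q over summed markers came to 0.129, 0.138 and 0.111 in the knockdown livers and to 0.170, 0.136 and 0.139 in the controls, and these ratios overlapped between the groups.

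In coagulation 0 of 25 genes passed in edgeR with all libraries (2 at an unadjusted p under 0.05, and 1, F11, by DESeq2), and 19 of the 25 had negative fold changes, against 54.7% of all genes tested. When control replicate 1 was left out 14 of the 25 were negative, against 49.2% of all genes. Fibrinogen, the substrate of thrombin, is built from the chains of Fga, Fgb and Fgg, which lie side by side on chromosome 3. Fga stood at 4538, 5546 and 4355 CPM in knockdown replicates 1 to 3, against 5869, 3449 and 3061 CPM in control replicates 1 to 3. Fgb stood at 4357, 4931 and 4038 CPM in the knockdown livers and 4836, 3845 and 3616 CPM in the controls. Fgg stood at 2242, 2660.4 and 2313 CPM in the knockdown livers and 2533, 1839 and 1502 CPM in the controls. The groups overlapped for each, with control replicate 1 within or above the knockdown range (log2 fold changes 0.22, 0.12 and 0.30, edgeR adjusted p = 0.785, 0.854 and 0.650). Without that library Fga and Fgg rose (0.58 and 0.54, edgeR adjusted p = 0.0362 and 0.0390) and Fgb did not pass (0.27, edgeR adjusted p = 0.271). The FPKM ratio of Fgb to Fgg was 0.628 ± 0.0447 in knockdown and 0.752 ± 0.104 in controls (SD, n = 3 each, exact permutation p = 0.1, 0.229 after adjustment). F13b, the carrier chain of the factor XIII transglutaminase, did not pass (log2 fold change -0.09, edgeR adjusted p = 0.924). Its log2 fold change was -0.35 without control replicate 1 and did not pass either (edgeR adjusted p = 0.0697).

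All 5 procoagulant factors had negative fold changes with all libraries, and none passed. That of F2 was 0.02 without control replicate 1, and the others stayed negative. F9, encoding factor IX, stood at 107, 124 and 139 CPM in knockdown replicates 1 to 3, against 47.8, 219 and 225 CPM in control replicates 1 to 3. Control replicate 1 was the lowest library and the other controls the highest, so the groups overlapped (log2 fold change -0.41, SE 0.52, edgeR adjusted p = 0.766). Once control replicate 1 was left out F9 fell (log2 fold change -0.83, SE 0.15, edgeR adjusted p = 0.00280). F5, encoding the cofactor of factor Xa, fell in the same fit (log2 fold change -0.46, SE 0.16, edgeR adjusted p = 0.0475). F2, which encodes prothrombin and was the most abundant of the 5, stood at 1742, 1892 and 1423 CPM in the knockdown livers and 2888, 1749 and 1599.7 CPM in the controls (log2 fold change -0.30, SE 0.28, edgeR adjusted p = 0.684). F7 and F10, which sit side by side with Proz on chromosome 8, had log2 fold changes of -0.27 and -0.36, and Proz of -0.29 (edgeR adjusted p = 0.667, 0.513 and 0.603).

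F11 had the largest difference in the contact system, whose proteins start clotting on charged surfaces and release bradykinin from kininogen. F11, encoding factor XI, stood at 74.6, 61.2 and 62.9 CPM in knockdown replicates 1 to 3, against 31.0, 41.8 and 35.6 CPM in control replicates 1 to 3. Every knockdown library was above every control, at 1.83-fold, and it did not pass with all libraries (log2 fold change 0.87, SE 0.20, edgeR adjusted p = 0.106). It rose without control replicate 1 (log2 fold change 0.79, SE 0.14, edgeR adjusted p = 0.00283). F12, Kng1 and Kng2 had negative fold changes and Klkb1 a positive one, with edgeR adjusted p of 0.636 or more. That of Klkb1 came from 28 to 118 reads per library and was negative on log2(FPKM + 1) (-0.17, SE 0.29, limma adjusted p = 0.852). Kng1, the kininogen gene with the highest level of the role, stood at 2702, 3457 and 2373 CPM in the knockdown livers and 6296, 3317 and 2274 CPM in the controls, with a log2 fold change of -0.48 with all libraries and 0.04 without control replicate 1.

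All 6 anticoagulants had negative log2 fold changes, between -0.44 and -0.21, and none passed. Pros1, encoding protein S, stood at 95.2, 95.3 and 105 CPM in knockdown replicates 1 to 3, against 123, 143 and 119.8 CPM in control replicates 1 to 3. The groups did not overlap (log2 fold change -0.39, SE 0.17, edgeR adjusted p = 0.355). Pros1 fell without control replicate 1 (log2 fold change -0.40, SE 0.14, edgeR adjusted p = 0.0479). Serpind1, encoding heparin cofactor II, stood at 473, 459 and 528 CPM in the knockdown livers and 801, 628 and 554 CPM in the controls and did not overlap either (log2 fold change -0.44, SE 0.21, edgeR adjusted p = 0.391). Serpinc1 and Proc, which encode antithrombin and protein C, had log2 fold changes of -0.35 and -0.31 with all libraries and -0.12 and -0.02 without control replicate 1. The FPKM ratio of Serpinc1 to its target F2 was 4.54 ± 0.215 in knockdown and 4.93 ± 0.583 in controls (SD, n = 3 each, exact permutation p = 0.5). The size of this ratio holds on the FPKM scale only: counted reads per length and depth came to 572 for Serpinc1 and 586 for F2.

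Hrg had the largest negative fold change of the 49 genes with all libraries, and F9 had it without control replicate 1. It encodes histidine-rich glycoprotein, which binds plasminogen and heparin, and it stood at 810.4, 1123 and 714 CPM in knockdown replicates 1 to 3, against 3422, 1709 and 957 CPM in control replicates 1 to 3. Control replicate 3 lay inside the knockdown range, and the controls ran wide apart (log2 fold change -1.20, SE 0.46, edgeR adjusted p = 0.291). It did not pass without control replicate 1 either (log2 fold change -0.58, SE 0.26, edgeR adjusted p = 0.110). The FPKM ratio of Hrg to Plg, the plasminogen gene, was 0.614, 0.736 and 0.617 in the knockdown livers and 1.55, 1.49 and 1.10 in the controls, without overlap (exact permutation p = 0.1, 0.229 after adjustment). Plg itself stood at 2353, 2721 and 1967 CPM in the knockdown livers and 4026, 2071 and 1623 CPM in the controls (log2 fold change -0.13, SE 0.36, edgeR adjusted p = 0.900). Its sign turned without control replicate 1 (0.36, edgeR adjusted p = 0.183). Serpinf2, the plasmin inhibitor, had 1059, 1104 and 831 CPM in knockdown and 1750.1, 679.8 and 469 CPM in the controls. Its log2 fold change was 0.05 with all libraries (edgeR adjusted p = 0.975), and it rose without control replicate 1 (log2 fold change 0.81, SE 0.20, edgeR adjusted p = 0.0133), a call that ended when the GC and length offset was added (0.52, edgeR adjusted p = 0.0578). Hgfac, the serine protease that activates hepatocyte growth factor, was lower in each knockdown library than in any control, at 175, 171 and 125 CPM in the knockdown livers and 303, 187 and 194 CPM in the controls (log2 fold change -0.54, SE 0.26, edgeR adjusted p = 0.394). Its log2 fold change was -0.27 without control replicate 1 (edgeR adjusted p = 0.229). Cpb2 had a log2 fold change of -0.02.

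**Figure D3:**
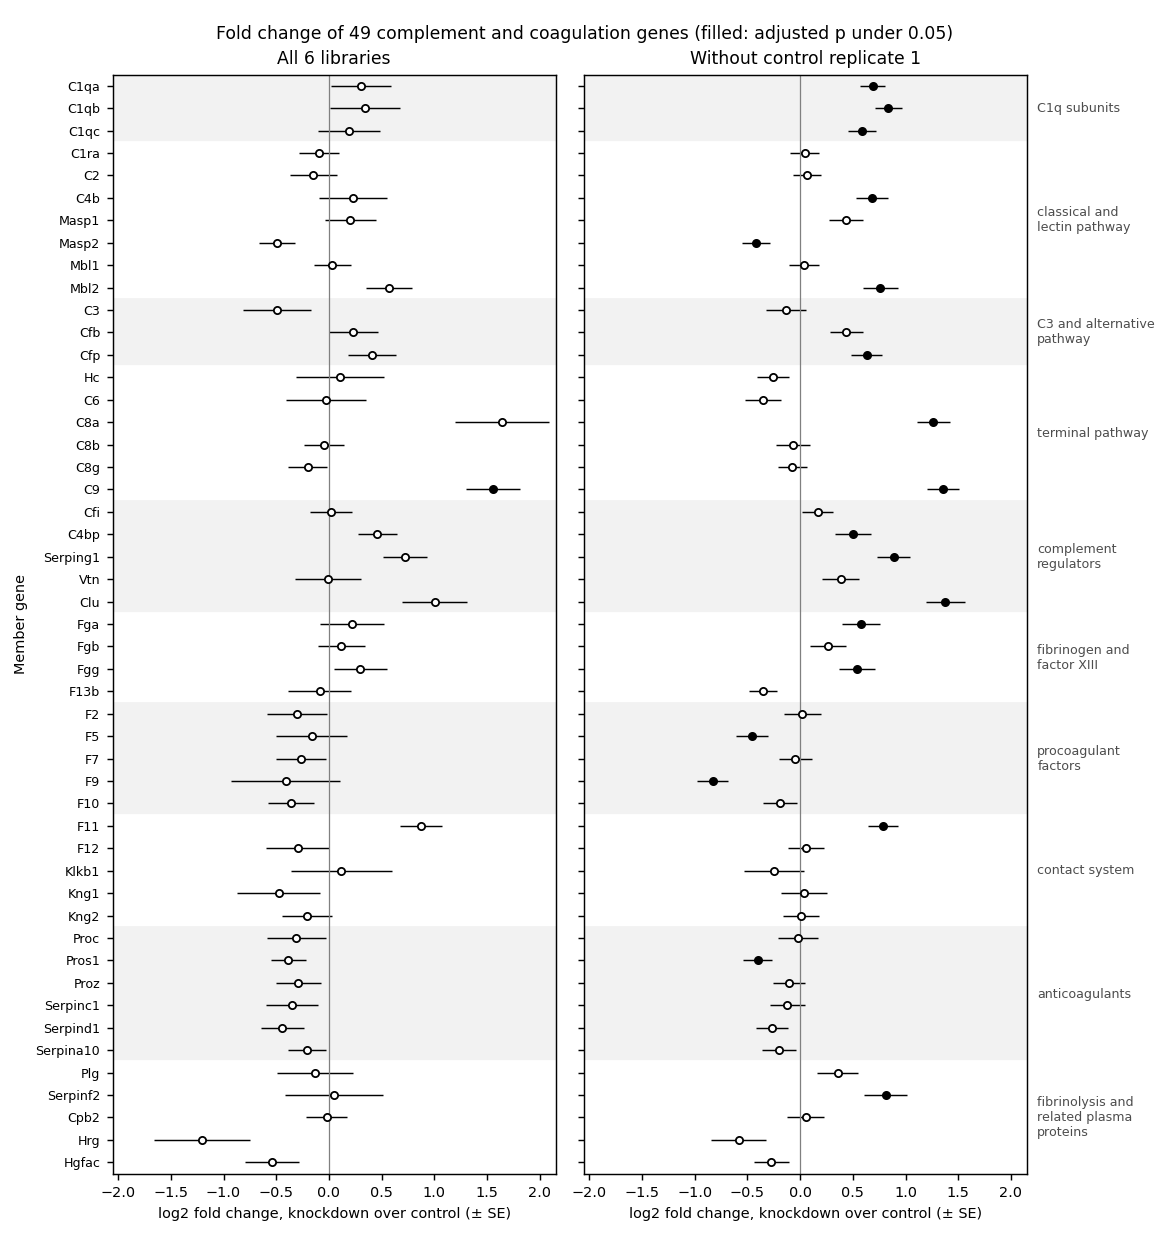
Log2 fold change, knockdown over control, with its SE for the 49 members by role, with all 6 libraries (left) and without control replicate 1 (right); filled points have an edgeR adjusted p under 0.05. C9 is the single filled point on the left, and on the right 15 points above 0 and 4 below 0 are filled.

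Relative to each gene's mean over the 6 libraries, the complement median stood above the coagulation median in every knockdown library and below it in every control. That centring ties the groups together, since values above 0 in some libraries go with values below 0 in others. In summed CPM complement was above coagulation in control replicates 1 and 3 as well (45035 against 41907 and 27574 against 23187). The median log2 fold change was 0.20 over the 24 complement genes, with 16 positive, and -0.27 over the 25 coagulation genes, with 6 positive. All genes tested had a median of -0.05. Without control replicate 1 the medians were 0.44 for complement (18 positive), -0.05 for coagulation (11 positive) and 0.01 for all genes. With the GC and length offset and all libraries they were 0.0188, -0.33 and -0.15. For each library the median member of each arm was taken relative to the gene's mean over all 6 libraries. Complement minus coagulation then came to 0.31, 0.08 and 0.28 on the log2 scale in knockdown replicates 1 to 3 and to -0.23, -0.23 and -0.22 in control replicates 1 to 3. Control replicate 1, which was high for both arms (0.23 and 0.46), did not stand apart in this difference. Without C1q and Cfp the same difference was 0.25, 0.04 and 0.19 in knockdown and -0.32, -0.17 and -0.07 in controls. The difference between the medians of the arms was 0.46 with all libraries and 0.35 to 0.55 over the other 19 fits. This is a description with no test, since the genes were chosen with results known.

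**Figure D4:**
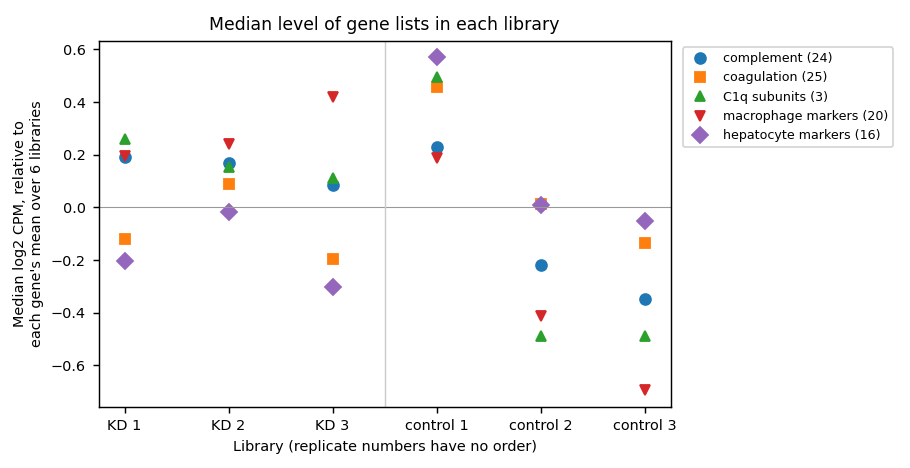
Median log2 CPM of each gene list in each library, relative to each gene's mean over the 6 libraries. Complement lies above coagulation in the 3 knockdown libraries and below it in the 3 controls, and C1q and the macrophage markers lie above 0 in the 3 knockdown libraries and control replicate 1 and below 0 in control replicates 2 and 3.

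Liver-made against macrophage-made genes gave a different picture. Over the 45 liver-made genes the median log2 fold change was -0.09 with all libraries and 0.04 without control replicate 1, and C1q 0.31 and 0.69. C1q minus liver-made, by library, was 0.30, 0.06 and 0.22 in the knockdown livers and 0.22, -0.41 and -0.32 in the controls, so control replicate 1 lay with the knockdown libraries. Hepatocyte markers, 16 of 17 listed found, had a median of -0.35 with all libraries (14 negative) and -0.02 without control replicate 1, and a summed level of 129828 to 148645 CPM in knockdown and 140547 to 185727 CPM in controls. Their part in the lower coagulation values was not tested.

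The members lowest in control replicate 1, set against the other controls, had low GC content, although some with low GC content, such as C4bp and Fgg, were not low there. F9, C8a, Hc, Klkb1, C6, F5 and F13b lay 1.08 to 2.21 below control replicates 2 and 3 on the log2 scale, and their longest transcripts had a GC content of 39.0% to 46.7%. Serpinf2, Hrg, Kng1, Plg, C1qb and C4b lay 1.05 to 1.63 above, at 47.1% to 57.4% GC. Over the 49 members the Spearman correlation of this difference with GC content was 0.703, and over 13729 genes it was 0.644, where the genes share the libraries and are not independent. For knockdown minus control replicates 2 and 3 it was 0.312 over the members and 0.355 over those genes. When each library's trends with GC content and transcript length were taken out as offsets, 3 members rose (C9, Clu and F11) and 1 fell (Hgfac), against 2.38% and 2.19% of genes. C9 kept its size there (log2 fold change 1.48, SE 0.14, edgeR adjusted p = 0.00515). DESeq2, with all libraries and no offset, called C8a, C9, Clu and F11 higher and no member lower, against 3.73% and 1.40% of genes.

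**Figure D5:**
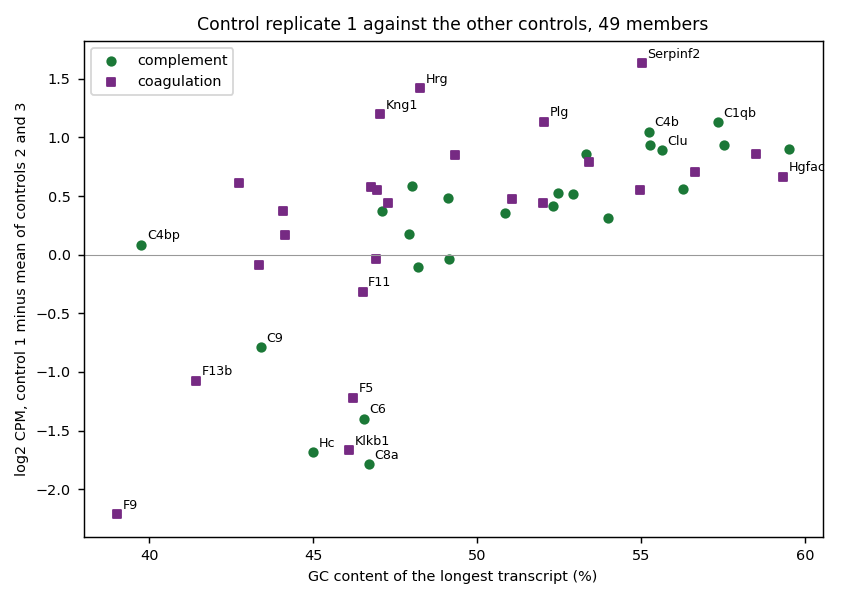
Log2 CPM of control replicate 1 minus the mean of control replicates 2 and 3 (vertical axis) against the GC content of the longest transcript (horizontal axis) for the 49 members. F9, C8a, Hc and C6, toward the low end of GC content, lie below 0, and C4b, Clu and C1qb, toward the high end, lie above 0.

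For a few members the counts lay far below the deposited FPKM, and their exons lie partly under another annotated gene. Cfb, encoding factor B of the alternative pathway, shares 79.5% of its exonic bases with the transcript Gm20547 of the same strand (GENCODE M21), and counted reads put it at only 20.4, 20.1 and 16.3 CPM in knockdown and 20.2, 13.4 and 14.9 CPM in controls. The deposited FPKM put it at 847, 806 and 755 in knockdown and 1103, 693 and 727 in controls. Its FPKM was 128-fold higher than its reads per length and depth, where the median member had a ratio of 1.15. The log2 fold change of Cfb was 0.23 on counts (edgeR adjusted p = 0.705) and -0.04 on log2(FPKM + 1) (limma adjusted p = 0.966). Klkb1, encoding plasma prekallikrein, shares only 11.4% of its exonic bases with Cyp4v3 of the same strand and had a ratio of 55.2. It had 44.8, 53.1 and 40.1 FPKM in knockdown and 33.3, 72.2 and 56.6 FPKM in controls. Plg shares 11.3% with Slc22a3 on the other strand and had a ratio of 0.979. C2, which overlaps the same Gm20547, had a ratio of 7.09. On either scale the groups overlapped for Cfb, Klkb1 and C2. Masp2 shares 54.9% of its exonic bases with Tardbp on the other strand, and had a ratio of 3.49. Its FPKM was also lower in each knockdown library (136, 145 and 121) than in any control (192, 169 and 163). The sources used here do not say whether counting used strand, and the part of the shared bases in the values of these genes was not tested.

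Other genes of the pathways, receptors, membrane regulators and activators, were read from lists of 26 complement and 30 coagulation genes. Of 22 complement genes tested 0 passed in edgeR with all libraries (3 at an unadjusted p under 0.05; by DESeq2 Cr2 rose and C1qbp fell), and without control replicate 1, 6 rose (C3ar1, C5ar1, Cd93, Cr2, Itgax and Itgb2) and 6 fell, among them C1qbp, against 16.5% and 16.1% of all genes in that fit. Those with the smallest p were Cr2, a complement receptor gene, with 44, 31 and 31 reads in the knockdown libraries and 0, 3 and 0 reads in the controls (edgeR adjusted p = 0.0740), and C1qbp, at 57.0, 65.0 and 55.6 CPM in the knockdown livers and 117, 84.2 and 101 CPM in the controls (log2 fold change -0.77, SE 0.19, edgeR adjusted p = 0.140). Among those that rose without control replicate 1, C3ar1 was at 6.43 to 8.30 CPM in knockdown and 7.75 CPM in control replicate 1, and Itgb2 at 17.0 to 20.7 CPM in knockdown and 20.6 CPM in control replicate 1.

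Of 25 other coagulation genes tested 0 passed in edgeR with all libraries (5 at an unadjusted p under 0.05). By DESeq2 5 rose, against 3.73% of all genes. Of the 25, 20 had positive fold changes, and the median log2 fold change was 0.33. Without control replicate 1, 11 of 26 rose and 2 fell, against the same 16.5% and 16.1% of all genes. F3, which encodes tissue factor, the cell-surface trigger of clotting, stood at 6.79, 6.04 and 4.50 CPM in knockdown replicates 1 to 3, against 1.82, 2.44 and 1.95 CPM in control replicates 1 to 3. Its groups did not overlap (log2 fold change 1.48, SE 0.28, edgeR adjusted p = 0.0714). S100a10, a subunit of a plasminogen receptor, stood at 163, 110.4 and 212 CPM in knockdown replicates 1 to 3, against 67.9, 59.0 and 66.6 CPM in control replicates 1 to 3, also without overlap (log2 fold change 1.33, SE 0.26, edgeR adjusted p = 0.0744). Its partner Anxa2 and the protease-activated receptor gene F2rl1 were higher in every knockdown library as well, with log2 fold changes of 1.56 and 2.09 (edgeR adjusted p = 0.118 and 0.128). F3 rose without control replicate 1 (log2 fold change 1.41, SE 0.27, edgeR adjusted p = 0.00381), as did S100a10, Anxa2 and F2rl1. The vitamin K cycle genes Ggcx and Vkorc1, needed to activate factors VII, IX, X and prothrombin, had log2 fold changes of 0.10 and -0.46 and did not pass.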

How the data were processed

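RNA libraries of mouse liver, 6 in all and 3 per group, were sequenced. The authors deposited raw read counts per gene for each library and 1 table of FPKM values. FastQC, Trim Galore, HISAT2, HTSeq and Cufflinks 2.2.1 with GRCm38 (mm10) are named, per the submitters' processing notes; strand and annotation version are not given in the sources used here. Counts were tested here with edgeR 4.0.16 in R 4.3.3 (filterByExpr, TMM scaling, quasi-likelihood F-test, Benjamini-Hochberg adjustment over all 13767 genes, threshold 0.05), knockdown over control; CPM uses TMM-scaled library sizes. The test was checked on simulated counts that held no GC trend and no library that stood apart, so that check does not cover control replicate 1. FPKM served for levels, ratios and overlap checks, and for limma 3.58.1 on log2(FPKM + 1), for genes with FPKM of at least 0.5 in 3 libraries. Overlaps, GC content and transcript lengths came from GENCODE on GRCm38. Members and gene lists were chosen with earlier results of these data known. Named genes were Atoh8, C1q, fibrinogen, members that passed, the 2 with the smallest p and the 1 with the highest FPKM in each of 10 roles, the 5 largest increases and decreases called without control replicate 1, and the 2 with the smallest p in each list of other pathway genes; further members are named to account for the list, and Anxa2, F2rl1, C3ar1, Itgb2, Ggcx and Vkorc1 were named after their values were seen. Other alternatives were DESeq2 1.42.0, voom with quality weights, other filters and scalings, a replicate block, a GC and length offset, and leaving out each library. Tf, C1s2 and Itgam were not analysed here.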

Additional observations from a re-analysis of the deposited data

How the results depend on the processing

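The count of members that rose, 1 with all libraries, was 0 with median-ratio size factors, 4 with DESeq2, 17 with voom, 0 with the replicate block and 3 with the GC and length offset; without control replicate 1 it was 11 with the offset, 14 with the block and 17 with DESeq2. Members that fell, 0 with all libraries, numbered 5 with voom and 1 with the offset, and without control replicate 1 they numbered 3 with the offset, 1 with the block and 5 with DESeq2. Leaving out 1 library gave 0 to 15 members that rose and 0 to 4 that fell. Over all genes, 102 rose and 17 fell; 213 and 34 did so with no filter, 590 and 221 with DESeq2, 2576 and 2512 with voom, 33 and 2 with the block and 327 and 300 with the offset, and 27 fell on log2(FPKM + 1). Without control replicate 1 the counts were 1761 and 2750 with the offset, 1926 and 1870 with the block, and 2477 and 2325 with DESeq2. Leaving out 1 library gave 0 to 2348 and 0 to 2284. In edgeR 0 genes passed when control replicate 2 or knockdown replicate 1 or 3 was left out, where 1633, 1130 and 1224 had an unadjusted p under 0.05. The complement median of 0.20 was 0.44 with voom and with DESeq2 without control replicate 1, 0.0188 with the offset and 0.0794 to 0.437 with 1 library left out; the coagulation median of -0.27 was -0.05 without control replicate 1. Signs turned for genes that had not passed: F2 was 0.0241 with DESeq2 without control replicate 1, Fgb -0.20 with the offset, and Hc -0.22 with voom and, without control replicate 1, -0.19 with the offset, -0.26 with the block and -0.25 with DESeq2. Kng1, without control replicate 1, was 0.0789 with the block and 0.0391 with DESeq2. In edgeR without that library Plg (0.36), Vtn (0.38), Klkb1 (-0.25), F12 (0.06), C2 (0.06), Cpb2 (0.05), C1ra (0.04) and Kng2 (0.01) turned too. On log2(FPKM + 1) with all libraries Klkb1 (-0.17), Cfb (-0.04), Cfi (-0.08), C6 (0.08) and Vtn (0.09) turned. With 1 library left out F2 ran over -0.46 to 0.0230, F5 over -0.46 to 0.0210, Hc over -0.26 to 0.36 and Kng1 over -0.76 to 0.0374. The replicate numbers did not pair the libraries (correlations of same-numbered deviations 0.253, -0.082 and 0.29), and C9 had a log2 fold change of 1.60 and an edgeR adjusted p of 0.0706 with the block. Fits without control replicate 1 combined with the offset, block or DESeq2 were added after seeing the data. The causes were not tested.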
